A study of Mus musculus with 6 samples.

Results

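Wide accessible regions at gene ends were examined in hematopoietic stem cells of mice with and without deletion of Dek, a gene for a chromatin-bound nuclear protein. The assay was ATAC-seq: the Tn5 transposase cuts open DNA and leaves closed DNA largely uncut. The data are lists of peaks, the intervals with more cuts than their surroundings. Peaks of the 6 lists on chromosomes 1 to 19 and X were merged wherever they shared at least 1 bp, which gave 84592 regions. Regions were chosen by the width of their peaks: a region was kept when it lay within 1 kb of an end of exactly 1 protein-coding gene (mm10, RefSeq) and held a peak of at least 2000 bp in each of the 4 lists of replicates 1 and 2 of both groups. This rule found 375 regions at 374 genes, with Plekho2 holding 1 region at each of its ends, among 11473 regions that lay at an end of exactly 1 protein-coding gene and were called in the same 4 lists. The remaining 11098 serve below as the other gene-end regions.

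Both groups were C57BL/6 mice of 12 weeks (3 months) without an applied stress, and both carried 2 floxed Dek alleles. The group Dek_fl had the genotype Dekfl/fl, and the group Dek_cKO had the genotype Dekfl/fl,Tie2-Cre, in which regulatory DNA of Tek (Tie2) drives Cre in blood and endothelial cells, so that deletion is not limited to the stem cells. About 20000 bone marrow cells, gated as Lin-Sca-1+c-Kit+ and, within that gate, as CD48-CD150+, were sorted for each of the 3 libraries of a group. Separate animals are not stated for the libraries of a group, and the p-values cover only the spread among these libraries, which could be technical. Of 18 stem cell surface marker genes, between 11 and 18 carried a gene-end peak per list. Markers of other cells had such peaks too, in ranges over the lists of 3 to 9 of 10 endothelial, 2 to 7 of 7 stromal, 1 to 7 of 10 neutrophil and monocyte, 1 to 6 of 9 B cell, 1 to 6 of 10 T and NK cell, 5 of 9 erythroid and 4 to 5 of 6 megakaryocyte genes. Of 10 genes of liver, muscle, skin, pancreas, eye or nervous tissue, between 0 and 2 had one.

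The replicates were not alike. The 3 Dek_fl lists held 52451, 71555 and 23813 peaks and the 3 Dek_cKO lists 70756, 73173 and 27170, of which 894, 3554 and 23 peaks and 3200, 1906 and 12 peaks reached 2000 bp. Both replicate 3 lists were thus short and poor in wide peaks, in both groups alike, and they were made with another threshold. Their lowest −log10 p-values were 5.07 and 5.02, against 2.87 to 3.13 in the other 4 lists, and their lowest −log10 q-values 2.83 and 2.82, against 1.30 to 1.33. Their score was 10 times the −log10 p-value, within 1 unit, in 100% of peaks, where the other lists used the −log10 q-value. Widths, splits and reach in replicate 3 are therefore not on the scale of the other lists, and the part of the threshold in them was not tested. The series design text speaks of duplicates, while the labels give 3 libraries per group. Numbers of reads are unknown.

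A promoter in an active gene is kept open by the removal of nucleosomes just before the transcription start, so that a usual ATAC-seq peak there spans the nucleosome-free stretch and a few flanking nucleosomes. Wider open stretches can arise where several start sites, an enhancer or a CpG island lie beside each other, and a peak caller joins neighbouring summits into 1 interval when the signal between them stays above its threshold. The width of an interval and the height of its summit are therefore separate quantities.

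Promoter sequences of 4 genes are shown because the summits of all 6 libraries lay inside the window, over stretches of different length. Each is the 250 bases before the RefSeq start at the gene's 5′ end, and the capitals mark the stretch that the 6 libraries' summits spanned, a summit being the base of highest signal in the peak of highest fold. Cfap77, a gene named for cilia and flagella, had the most fixed summit of all the wide regions. Its window was chr2:29055067-29055316 (GRCm38.p6, the assembly of mm10, minus strand), and the capitals cover 4 bases, 194 to 191 bases before the start. B2m, the light chain of MHC class I, had its window at chr2:122147437-122147686 (plus strand), with the summits 103 to 11 bases before the start. Edn1, the gene of the peptide endothelin-1, had its window at chr13:42301226-42301475 (plus strand), with the summits 116 to 29 bases before the start. Zfp367, a zinc finger gene, had its window at chr13:64153200-64153449 (minus strand), with the summits 248 to 104 bases before the start.
Cfap77: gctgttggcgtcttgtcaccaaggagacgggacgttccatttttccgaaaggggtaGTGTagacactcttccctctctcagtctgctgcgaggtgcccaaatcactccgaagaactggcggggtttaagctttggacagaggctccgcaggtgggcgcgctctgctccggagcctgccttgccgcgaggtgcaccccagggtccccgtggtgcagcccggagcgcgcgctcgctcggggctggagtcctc
B2m: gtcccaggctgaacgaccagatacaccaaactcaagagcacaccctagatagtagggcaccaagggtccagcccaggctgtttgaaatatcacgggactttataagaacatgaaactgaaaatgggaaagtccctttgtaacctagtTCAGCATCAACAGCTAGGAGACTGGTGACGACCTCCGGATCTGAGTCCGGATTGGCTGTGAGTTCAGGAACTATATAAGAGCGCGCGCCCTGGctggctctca
Edn1: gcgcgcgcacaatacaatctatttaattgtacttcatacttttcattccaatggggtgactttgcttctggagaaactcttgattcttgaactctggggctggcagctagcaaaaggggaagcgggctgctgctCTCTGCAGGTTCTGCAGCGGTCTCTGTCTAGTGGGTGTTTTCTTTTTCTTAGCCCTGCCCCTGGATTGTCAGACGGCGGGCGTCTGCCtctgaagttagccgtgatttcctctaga
Zfp367: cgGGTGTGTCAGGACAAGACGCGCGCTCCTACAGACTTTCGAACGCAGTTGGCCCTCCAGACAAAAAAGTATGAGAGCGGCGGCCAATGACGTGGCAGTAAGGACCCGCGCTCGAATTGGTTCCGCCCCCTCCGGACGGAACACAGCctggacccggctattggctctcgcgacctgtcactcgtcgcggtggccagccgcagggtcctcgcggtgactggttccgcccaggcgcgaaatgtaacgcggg
The windows of Cfap77 and Zfp367 each held 64% G and C, with 20 and 29 CG pairs, and those of B2m and Edn1 held 50.8% and 50.4%, with 8 and 9 CG pairs. The first pair thus held more CG pairs than the second.

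Such promoter windows (RefSeq, GRCm38.p6, 250 bases before to 50 bases after a start) numbered 295 for the wide regions and 8108 for the other gene-end regions, beside 32851 windows in the whole table. Each was the window of the gene's start in the table nearest to the summit, also where that start lay outside the region. With a matched strand, 27 of 296 wide regions and 1809 of 8713 others held no start. The median window held 63.3% G and C in the wide regions, 61% in the other gene-end regions and 52.7% in the whole table, with 22, 20 and 7 CG pairs. The letters GGGCGG, read on both strands, stood in 67.8% of the windows of wide regions, 64.6% of those of the other gene-end regions and 35.7% of all windows. TATAAA stood in 8.14%, 7.09% and 13.6%, CCAAT in 35.9%, 37.4% and 37.4%, and CCGGAA in 18.0%, 23.8% and 14.9%. TGANTCA stood in 4.07%, 4.91% and 7.81%, TGACGTCA in 2.71%, 3.11% and 1.79%, and CACGTG in 9.15%, 10.2% and 7.15%. None of these motifs holds another in full. The share of windows with GGGCGG lay close together for the wide and the other gene-end regions, and above that of the whole table. CCGGAA was less frequent in the windows of the wide regions than in those of the other gene-end regions. The part of windows that lay outside their region was not tested.

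The wide regions lay at the gene's start more often than the other gene-end regions did. The gene's strand was matched for 296 of them and 8713 of the others. Of these, 273 (92.2%) lay at the start alone against 86.1%, 13 (4.39%) at the other end alone against 11.8%, and 10 (3.38%) within 1 kb of both ends against 2.08%. The regions at the other end included those of Fosb, an AP-1 subunit gene, of Havcr2, which encodes the immune receptor TIM-3, of Ms4a2, which encodes the beta chain of the high-affinity IgE receptor of mast cells and basophils, and of Gimap6, a GTPase gene of lymphocytes. The short genes with an open region within reach of both ends included Socs1, a feedback inhibitor of cytokine signalling, Gadd45g, a stress response gene, Hes6, a helix-loop-helix gene, and Gp5, which encodes platelet glycoprotein V. At least 2 RefSeq starts lay inside 45 wide regions (15.2%) against 7.75% of the other gene-end regions, and an end of a non-coding gene lay within 1 kb of 95 of all 375 (25.3%) against 16.6%. A wider interval has more room for either, and the part of width in these shares was not tested. The median length of the genes was 33890 bp against 25531 bp.

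In replicates 1 and 2 the intervals reached farther into the gene than before it, by the starts in the promoter table, which can lack the gene's own 5′ end. In the order Dek_fl replicates 1 and 2, Dek_cKO replicates 1 and 2, the median wide peak with a matched strand began 890, 969, 931 and 960.5 bp before the nearest start and ended 1363, 1528.5, 1479 and 1467 bp after it. The other gene-end regions reached 458, 578, 560 and 514 bp before and 689, 856, 842 and 780 bp after. In the replicate 3 lists, which the rule did not use, the wide regions' peaks reached 435 and 414.5 bp before the start and 445 and 392 bp after it. The others reached 305 and 298 bp before it and 406 and 385 bp after it. The reach of the widest peak was thus still larger before the start in replicate 3, and close to that of the others after it. Only the widest peak of a region was measured. In replicate 3 more than 1 peak lay in 22.9% and 25.9% of the wide regions, against 2.38% and 3.06% of the others.

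Width chose the regions, and its values are a description. The median width in the 3 Dek_fl lists was 2261, 2442 and 890 bp, and in the 3 Dek_cKO lists 2433, 2384 and 812 bp. For the other gene-end regions it was 1087, 1405 and 690 bp and 1378, 1249 and 660 bp. In replicate 3 the widest peaks of the wide regions were hence nearer in width to those of the rest. Of the wide regions 345 and 347 were called there, and 336 were called in all 6 lists. Of the 375, 236 had a median width over the 4 lists below 2500 bp and 31 had one of at least 3000 bp. In replicate 3, 8 regions of Dek_fl and 4 of Dek_cKO reached 2000 bp, and those of Kansl1l, Setd7 and Crlf2 did so in all 6 lists.

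The region of Crlf2, a subunit of the receptor for the cytokine TSLP, was the most even of these 3. It spanned chr5:109556698-109558998 over the gene's start, and its peak measured 2234, 2250 and 2280 bp in Dek_fl and 2227, 2265 and 2269 bp in Dek_cKO. The groups overlapped, and no library stood apart. The region of Setd7, a lysine methyltransferase gene, measured 2418, 2631 and 2115 bp in Dek_fl and 2746, 2524 and 2176 bp in Dek_cKO. The region of Kansl1l, which encodes a protein like a subunit of the NSL acetyltransferase complex, measured 2806, 3077 and 2035 bp in Dek_fl and 2763, 2405 and 2030 bp in Dek_cKO. In both, the replicate 3 peaks were the narrowest of their group.

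**Figure D1:**
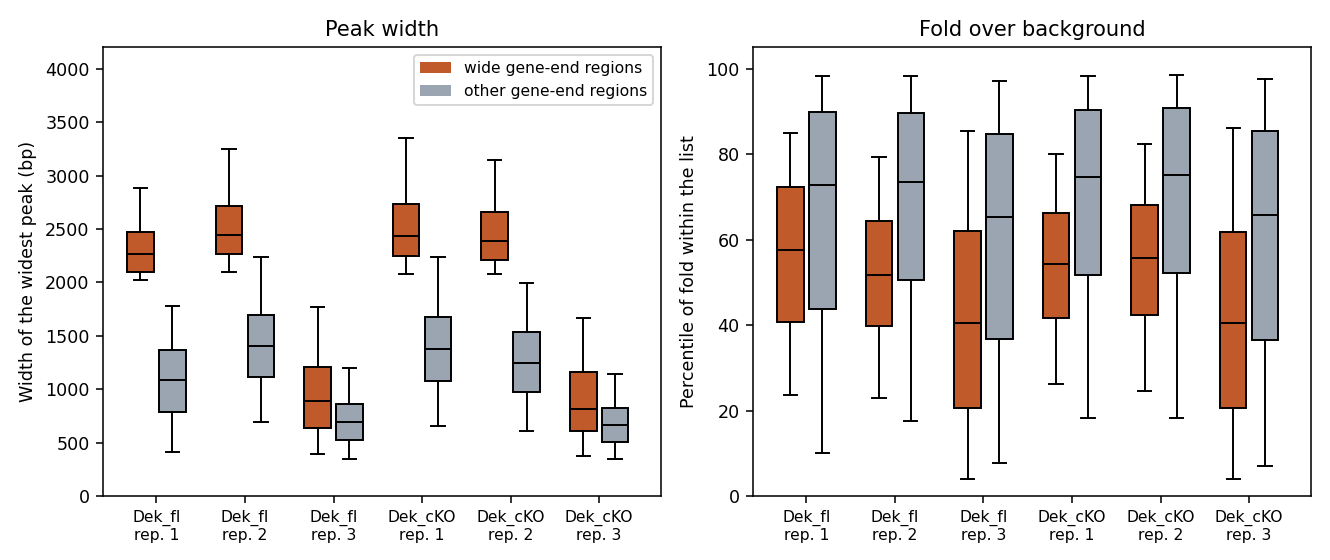
Width in bp of the widest peak (left) and percentile of the fold within its own list (right) in each of the 6 libraries, for the wide regions and the other gene-end regions; boxes span the quartiles with the median as a line, and whiskers run from the 5th to the 95th percentile. The wide regions' median width lay between 2261 and 2442 bp in replicates 1 and 2 and at 890 and 812 bp in replicate 3, and their median percentile of fold lay below that of the other gene-end regions in every library.

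The widest regions by median over the 4 lists included genes of the cell surface and of signalling. The region of Pcdh7, a protocadherin adhesion gene, spanned chr5:57713746-57718808 and was called as 3190, 4750 and 1021 bp in Dek_fl and 4834, 3766 and 576 bp in Dek_cKO. It was cut into 2 or 3 peaks in 4 of the lists, and the summed width of its peaks was 4487, 4750 and 1673 bp in Dek_fl and 4834, 4496 and 1317 bp in Dek_cKO, with both replicate 3 lists below the other 4. The region of S1pr1, a receptor for sphingosine 1-phosphate that guides the egress of blood cells, measured 3618, 3516 and 1633 bp in Dek_fl and 3525, 3639 and 864 bp in Dek_cKO. That of Cdk6, a kinase of the G1 phase, measured 3309, 3405 and 2802 bp in Dek_fl and 3395, 3373 and 878 bp in Dek_cKO, so that the replicate 3 lists differed while the other 4 were nearly equal. That of Angpt1, a ligand of the Tie2 receptor, measured 3719 and 3635 bp in Dek_fl replicates 1 and 2 and 3605, 2722 and 468 bp in Dek_cKO, and was not called in Dek_fl replicate 3. Ms4a2 had its wide peak in the 4 lists only, at 2164, 3464, 3455 and 3394 bp in Dek_fl 1, Dek_fl 2, Dek_cKO 1 and Dek_cKO 2. The others of the 10 widest were Tor4a, a torsin ATPase gene, with a median of 4019.5 bp, Ap3m2, a subunit gene of the AP-3 adaptor, with 3661 bp, Fat4, a large protocadherin gene, with 3549.5 bp, Klf10, a zinc finger gene induced by TGF-beta, with 3401.5 bp, and Thbd, the gene of thrombomodulin, with 3341 bp.

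At the lower edge, the narrowest of the 4 peaks measured 2000 bp at Hmcn1, 2001 bp at Gja1 and Gusb, 2002 bp at Creb5 and 2003 bp at Fhdc1. Just outside stood Msn, Dek and Dipk2a at 1997 bp, Tbc1d15 at 1995 bp and Lef1 at 1994 bp. Dek, the gene floxed in both groups, thus lay just outside the rule: its gene-end region, chr13:47104846-47107066, measured 2002, 2203 and 1457 bp in Dek_fl and 2137, 1997 and 846 bp in Dek_cKO. A peak at a gene end checks no deletion inside the gene. Widths thus ran on without a gap across the threshold.

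The lists of genes by role were compared by counts of members, beside 374 of 10521 genes (3.55%) with any gene-end region in the 4 lists. Of 26 immediate early and feedback genes with such a region, 4 had a wide one (15.4%): Dusp6, the phosphatase that shuts off ERK, Btg2, an antiproliferative gene, and the AP-1 genes Jun and Fosb. Of 18 housekeeping genes it was 3 (16.7%): Ubb, a ubiquitin gene, Eef2, a translation elongation factor gene, and B2m. Of 30 stem cell transcription factors 1 did (3.33%), Cbfb, the partner of the Runx proteins, and of 15 stem cell surface markers 1 did (6.67%), Cxcr4, the receptor that holds stem cells in the marrow. One of 23 chromatin regulators (4.35%), the DNA demethylase gene Tet2, and 1 of 16 splicing factors (6.25%), Sf3b1, had a wide region. Of 274 zinc finger genes with a symbol beginning in Zfp 2 did (0.730%), Zfp1 and Zfp367. That list leaves out zinc finger genes of other names, such as Klf10. Of 56 cytosolic ribosomal protein genes 0 did, although 73 of the 80 genes of that list had a gene-end peak in all 6 lists. Among markers of other cells, 1 of 5 megakaryocyte genes (Gp5), 0 of 9 endothelial, 0 of 6 stromal, 0 of 4 erythroid, 0 of 3 neutrophil and monocyte, 0 of 3 T and NK cell and 0 of 2 B cell genes had a wide region. These are counts of members only, with no test of any list.

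Of the members of these lists, 4 are given by library. The region of Dusp6 (chr10:99261120-99264032) measured 2626, 2900 and 907 bp in Dek_fl and 2805, 2806 and 1100 bp in Dek_cKO. The region of Cxcr4 (chr1:128590741-128593394) measured 2217, 2654 and 922 bp in Dek_fl and 2558, 2609 and 750 bp in Dek_cKO. The region of Tet2 (chr3:133543212-133545651) measured 2104, 2378 and 1329 bp in Dek_fl and 2367, 2337 and 1293 bp in Dek_cKO. In each of these 3 genes the groups overlapped and Dek_fl replicate 1 was the narrowest of the 4 lists. The region of Sf3b1 (chr1:55025856-55029657), a core subunit of the spliceosome, measured 2687, 3587 and 654 bp in Dek_fl and 3761, 2097 and 603 bp in Dek_cKO. There the second Dek_cKO list held a separate peak of 884 bp upstream where the other 3 lists had 1 joined interval.

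The wide peaks were not the highest ones. The fold of a peak, as the authors deposited it, is its summit over the local background and can be ranked only within its own list. The median fold of the wide regions was 4.82, 4.68 and 7.25 in Dek_fl and 5.38, 5.80 and 7.63 in Dek_cKO, below the 5.76, 6.09 and 9.29 and the 6.91, 7.50 and 9.89 of the other gene-end regions. Percentiles were taken among all regions called in a list, each by its peak of highest fold. The median wide region stood at 57.5, 51.7 and 40.4 in Dek_fl and at 54.4, 55.7 and 40.5 in Dek_cKO. The median of the other gene-end regions stood at 72.8, 73.5 and 65.3 and at 74.6, 75.2 and 65.8. Not 1 of the 375 was at or above the 90th percentile in all 4 lists of replicates 1 and 2, where 1804 of the other gene-end regions (16.3%) were. Below the 50th percentile in all 4 stood 94 of the wide regions (25.1%) and 16.4% of the others. The −log10 p-value did not share this gap, with wide-region medians of 34.0, 68.3, 27.8, 70.3, 63.2 and 29.0 in the order of the 6 libraries against 32.7, 70.3, 30.3, 71.4, 64.2 and 30.6.

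The relation of width and fold inside the set differed between the lists the rule used and the replicate 3 lists. Across the 375 wide regions, Spearman's rank correlation of width with fold was −0.31, −0.48, −0.46 and −0.45 in Dek_fl 1, Dek_fl 2, Dek_cKO 1 and Dek_cKO 2, and 0.38, 0.054, 0.035 and 0.11 across the other gene-end regions. In replicate 3, where the rule had not fixed the width, it was 0.15 and 0.12 across the 345 and 347 wide regions called and 0.33 and 0.30 across the other gene-end regions, so that the negative sign was found only in the 4 lists whose widths chose the regions. These values are across regions of 1 library, which share that library's depth and threshold and are not independent replicates, and the least width of 2000 bp limits the range in 4 of the lists.

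The flattest wide regions by mean percentile over the libraries were those of Fosb, Pcdh7 and Jun. The fold at Jun was 3.05, 2.04 and 5.12 in Dek_fl and 2.63, 3.04 and 5.67 in Dek_cKO, which placed it between percentiles 1.24 and 14.1 of its lists. The fold at Fosb (chr7:19300568-19303098) was 3.30, 2.31 and 3.55 in Dek_fl and 2.71, 2.69 and 3.78 in Dek_cKO, with no separation of the groups. The fold at Pcdh7 was 2.66, 2.47 and 4.79 in Dek_fl and 2.86, 2.98 and 4.36 in Dek_cKO. The highest were those of Nepro, of Naaa, which encodes an amidase of lipid mediators, and of Ythdf3, which encodes a reader of N6-methyladenosine in RNA. The fold at Nepro (chr16:44723801-44726429) was 7.40, 6.92 and 14.2 in Dek_fl and 7.61, 8.85 and 13.7 in Dek_cKO, between percentiles 81.7 and 95.1. In percentiles, the groups overlapped at all 6 of these genes.

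The first comparison between the genotypes concerned width. As a median over the wide regions, the log2 ratio of Dek_cKO to Dek_fl width in replicates 1 and 2 was 0.03. Within replicates it was 0.08 in replicate 1, with 310 regions wider in Dek_cKO and 64 narrower, −0.017 in replicate 2, with 144 wider and 228 narrower, and −0.040 in replicate 3, with 137 wider and 198 narrower of 336. The medians of the other gene-end regions were 0.27, −0.11 and −0.024 in replicates 1, 2 and 3. The sign thus turned between replicates in the wide and in the other gene-end regions alike. Dek_fl replicate 1 held the narrowest of the 4 peaks in 257 of the 375 regions, Dek_cKO 2 in 56, Dek_cKO 1 in 34 and Dek_fl 2 in 28. That list also had the fewest peaks of the 4, and the part of list length in the difference was not tested.

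Both Dek_cKO peaks were wider than both Dek_fl peaks of replicates 1 and 2 at 76 wide regions (20.3%), beside 15.3% of all 11473 gene-end regions, and both Dek_fl peaks were wider at 21 (5.60%), beside 5.17%. Since width chose the regions, nothing is read from these shares. The widest of the 4 peaks was less than 1.1 times the narrowest in 164 regions and at least 1.5 times in 18, with a median of 1.11 times. The most uneven region was that of Dusp4, a MAP kinase phosphatase gene, at 2242 and 4495 bp in Dek_fl 1 and 2 and 2465 and 2501 bp in Dek_cKO 1 and 2, a gene named after its values were seen. Its excess was in 1 library, Dek_fl 2, and in neither group as a whole.

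The second comparison concerned the rank of fold, which the rule did not use. The fold values of the 19683 regions called in all 6 lists were ranked within each library, turned into normal scores (0 for the median region, 1 for a region 1 SD above it) and tested by limma, the p-values being adjusted by Benjamini-Hochberg over all 19683. Of the 336 wide regions in this fit 0 passed an adjusted p of 0.05, beside 0% of all regions. At an unadjusted p below 0.05 there were 0 of the 336 and 87 of the 19683 (0.442%). By the rank of −log10 p again 0 of 336 passed, beside 0% of all. There 107 of all regions were at an unadjusted p below 0.05. These fits had no term for replicate 3. With such a term in limma, 847 of all regions (4.30%) and 5 wide ones (1.49%) had an unadjusted p below 0.05 for fold. No wide region passed the adjusted threshold there either. The fits without it gave few small p-values in any region, so their 0 does not show equal ranks. The Dek_cKO minus Dek_fl difference in fold score was negative for 223 of the 336 (66.4%), beside 52.7% of all regions, with a median of −0.089 against −0.018. For the rank of −log10 p it was negative for 176 (52.4%), beside 50.5% of all regions, with a median of −0.018 against −0.003.

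The wide regions' median score per library did not separate the groups. It was −0.60, −0.90 and −0.42 in Dek_fl and −0.83, −0.87 and −0.51 in Dek_cKO, so that the spread between replicates of 1 group was several times the difference. Without Dek_fl replicate 3 the median difference was 0.03, and without Dek_fl replicate 2 or Dek_cKO replicate 3 it was −0.23 or −0.24, so its sign and size rested on single libraries. All 3 Dek_fl scores lay above all 3 Dek_cKO scores at 14 wide regions (4.17%), beside 2.27% of all regions, and all 3 Dek_cKO scores above at 3 (0.893%), beside 2.1%. These 3 were at Eef2, at Dcbld1 and at Tmem191c, named after their values were seen, and they had adjusted p-values of 1.0.

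Of the 5 regions with the smallest limma p-value in the direction of lower rank in Dek_cKO, that of Igsf8, an immunoglobulin superfamily gene, came first. It spanned chr1:172309763-172313005 over the start. Its fold was 3.58, 3.66 and 5.75 in Dek_fl and 3.14, 3.84 and 4.86 in Dek_cKO, and its rank scores were −1.50, −1.55 and −1.11 and −2.18, −1.89 and −1.87. The scores of the groups did not overlap, and the limma adjusted p of the difference, −0.59 (SE 0.30), was 1.0. Edn1, whose sequence is shown above, had folds of 7.01, 6.33 and 9.14 in Dek_fl and 6.93, 7.49 and 6.61 in Dek_cKO. Its rank scores of 0.49, −0.04 and 0.20 against −0.13, −0.20 and −0.93 differed by −0.64 on average (SE 0.34, limma adjusted p 1.0), and the lowest score was that of Dek_cKO replicate 3. The other 3 were at Prob1, Gm9997 and Rrad, with differences of −0.68, −0.62 and −0.57, and each had a limma adjusted p of 1.0.

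In the other direction stood Ttll10, Sfi1, Epha4, Obi1 and Slc16a1, with differences of 0.57, 0.48, 0.61, 0.31 and 0.27 and limma adjusted p-values of 1.0. At Epha4, the gene of an ephrin receptor, the fold was 4.77, 4.65 and 3.97 in Dek_fl and 4.97, 5.78 and 8.66 in Dek_cKO. The replicate 3 pair carried that gap, and with replicates 1 and 2 alone the difference turned to −0.24. At Slc16a1, which encodes a lactate and pyruvate transporter, the fold was 4.83, 5.31 and 6.75 in Dek_fl and 6.37, 6.48 and 9.17 in Dek_cKO. These folds are not on 1 scale between lists. With replicates 1 and 2 alone the rank differences at Ttll10, Sfi1, Obi1 and Slc16a1 were 0.08, 0.42, 0.23 and 0.03. No wide region was thus called higher or lower in rank.

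**Figure D2:**
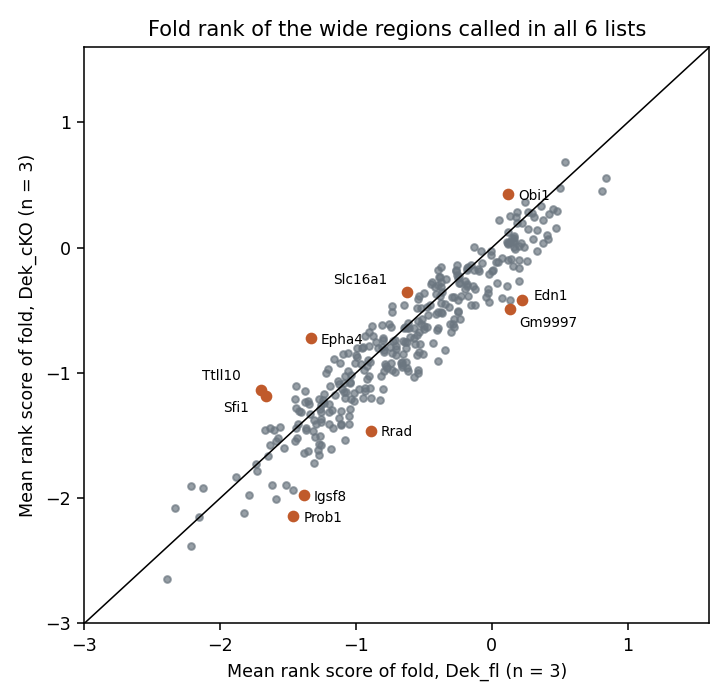
Mean rank score of fold in the 3 Dek_cKO libraries (vertical axis) against the mean in the 3 Dek_fl libraries (horizontal axis) for the 336 wide regions called in all 6 lists; the line marks equality, and the labelled points are the 5 regions with the smallest limma p-value in each direction. Points lay along the line, 223 of them below it, and 0 regions passed the adjusted threshold.

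The third comparison concerned the place of the summit. In the 296 wide regions with a matched strand, the median summit over the libraries lay within 100 bp of the nearest RefSeq start in 30.7%, against 44.0% of the other gene-end regions, within 250 bp in 56.4% against 65.2%, and within 1000 bp in 80.1% against 80.5%. The summit lay before the start in 163 and after it in 133. By library, the median distance was −34.5, −21 and −25 bp in Dek_fl and −25.5, −32 and −59.5 bp in Dek_cKO, where a negative value lies before the start. By these starts the wide regions' summits were centred just before the start, with a smaller share within 250 bp of it. The starts are those of the promoter table, which can lack the gene's own 5′ end. At Nav1, whose region lies at that end, the median distance was −103249.5 bp. No start lay inside 27 wide and 1809 other gene-end regions, and the part of such regions in these shares was not tested.

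The summit moved farther between libraries in the wide regions than in the others. Over the 6 libraries the distance between the outermost summits had a median of 269.5 bp in the 336 wide regions and 152 bp in the other gene-end regions, which is 10.2% and 9.78% of the region's width. It was under 100 bp in 41 (12.2% against 25.9%), from 100 to under 500 bp in 179 (53.3% against 66.8%) and at least 500 bp in 116 (34.5% against 7.34%). Among the wide regions with 1 RefSeq start inside, 68 of 203 (33.5%) had a range of at least 500 bp, and among those with 2 or more starts inside that were at least 500 bp apart 10 of 23 (43.5%) did. In the other gene-end regions the same shares were 6.40% and 15.5%.

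In the shorter replicate 3 lists the wide regions often came apart. More than 1 peak lay in the region in 79 of 345 (22.9%) in Dek_fl replicate 3 and in 90 of 347 (25.9%) in Dek_cKO replicate 3, against 2.38% and 3.06% of the other gene-end regions, and in 17, 5, 3 and 13 wide regions in the other 4 lists. In 55 wide regions both replicate 3 lists held more than 1 peak, and 28 of these had a summit range of at least 500 bp. Among the 224 with a single peak in both replicate 3 lists, 68 had such a range.

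At H13, the gene of signal peptide peptidase, the summit stood at 2391, 2345 and 40 bp after the start in Dek_fl and at 55, 2269 and 64 bp in Dek_cKO. Both replicate 3 lists held 2 peaks there, at 40 and 2412 bp in Dek_fl and at 64 and 2268 bp in Dek_cKO, so that the same pair of summits lay under the single interval of the other lists. At Arhgef18 the summit stood at 171, −54 and 2301 bp in Dek_fl and at 151, 2258 and 89 bp in Dek_cKO. Each group had 1 library with the distal summit and 2 with the proximal one. At Kansl1l the summit stood at 1359, 1359 and 262 bp in Dek_fl and at 1258, 1359 and 204 bp in Dek_cKO, and there the replicate 3 lists differed from the others in both groups.

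The most fixed summits were those of Cfap77, Impa2, an inositol monophosphatase gene, and Trim16, with ranges of 3, 5 and 11 bp. At Cfap77 (chr2:29052346-29055413) the summit lay at −191, −192 and −191 bp in Dek_fl and at −192, −194 and −193 bp in Dek_cKO, the 4 capital bases of the sequence above. The interval around it measured 2911, 2882 and 351 bp in Dek_fl and 3030, 2885 and 301 bp in Dek_cKO. In replicate 3 the interval was thus reduced to the stretch around the same summit, while in replicates 1 and 2 it ran over 2500 bp into the gene.

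**Figure D3:**
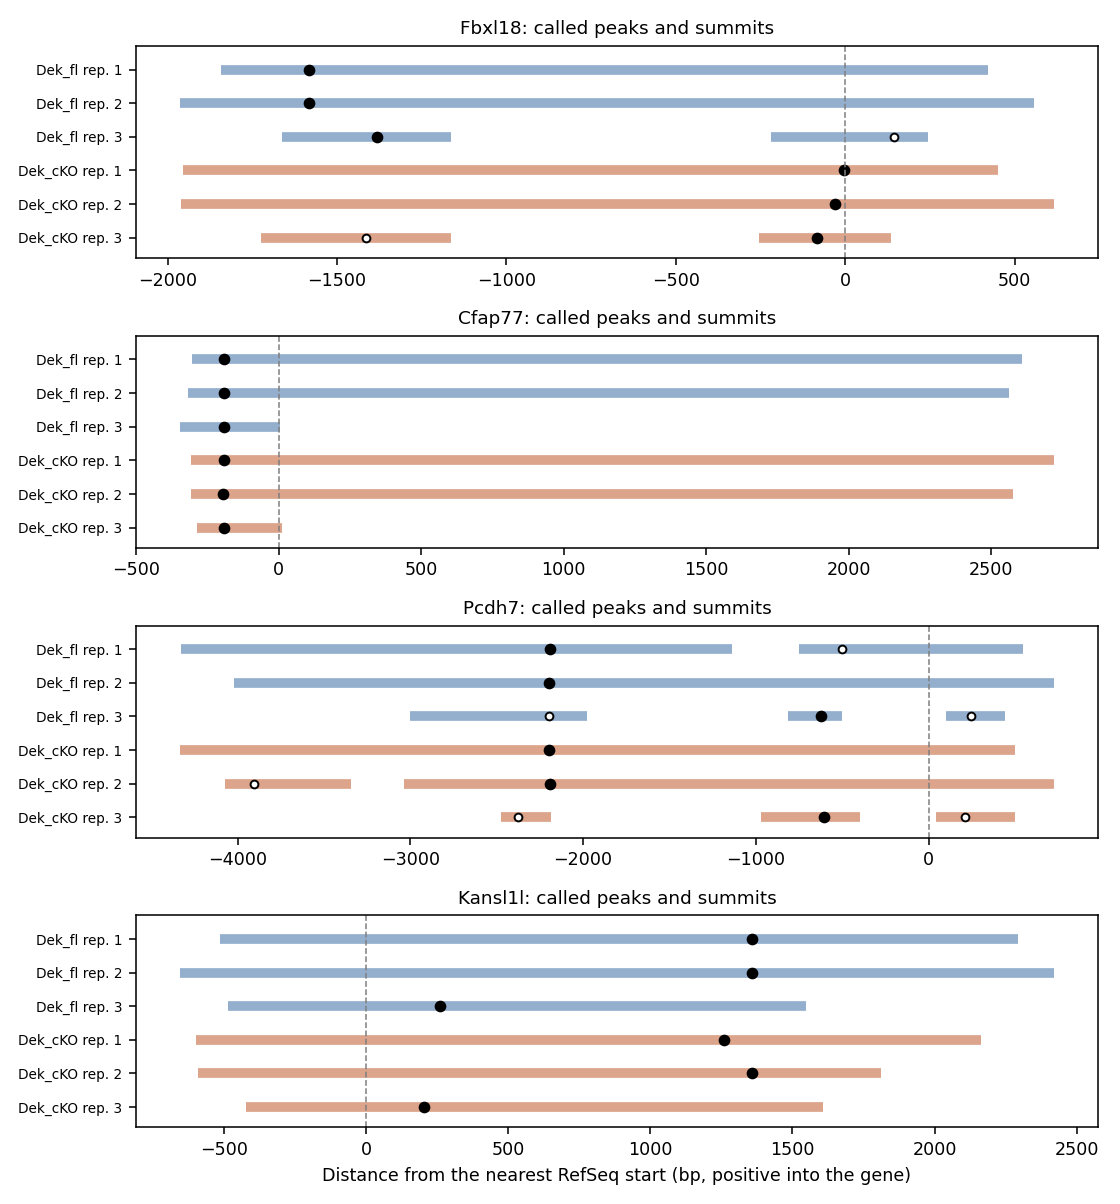
Called peaks (bars) in each of the 6 libraries at Fbxl18, Cfap77, Pcdh7 and Kansl1l, by distance in bp from the nearest RefSeq start (dashed line), positive into the gene; filled points are the summit of the peak of highest fold and open points the summits of the other peaks. At Fbxl18 the filled points lay between −1582 and −1382 bp in Dek_fl and between −83 and −4 bp in Dek_cKO, and at Cfap77 all 6 lay between −194 and −191 bp.

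Between the groups, limma on the summit position over the same 19683 regions gave 1 wide region with an adjusted p below 0.05, beside 0.0152% of all regions (3 of 19683). At an unadjusted p below 0.05 there were 8 of the 336 wide regions (2.38%), beside 2.33% of all. The region that passed was that of Fbxl18, the gene of an F-box protein with leucine-rich repeats, a kind of adaptor of ubiquitin ligases. It spanned chr5:142894621-142897202 (minus strand), and an end of the non-coding gene Gm38733 also lay within 1 kb. Its summit stood at −1582, −1582 and −1382 bp from the RefSeq start with a sequence entry in Dek_fl, and at −4, −30 and −83 bp in Dek_cKO. The gene's annotated 5′ end lies 1483 bp upstream of that start, and from there the Dek_fl summits stood at −99, −99 and 101 bp and the Dek_cKO summits at 1479, 1453 and 1400 bp. The groups did not overlap, with the Dek_fl summits by the outer end and the Dek_cKO summits by the inner start. The stretch from the summit of Dek_cKO replicate 2 to that of Dek_cKO replicate 1, 30 to 4 bases before the inner start, is shown in capitals (chr5:142895242-142895268, GRCm38.p6, minus strand).
Fbxl18: GTCCATCCGGGCGCAAGCGGAAGTACG

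The limma difference at Fbxl18 was −1476 bp in genome coordinates (SE 63.5, adjusted p 0.0087). The summit was at 1 of 2 positions, and the SE and p-value rest on the scatter in bp around them. They do not measure how sure it is which position was the higher in a library. Both positions were open in both groups: the replicate 3 lists split the region into 2 peaks, with folds of 4.40 at the outer and 3.95 at the inner position in Dek_fl and of 4.10 at the outer and 4.42 at the inner position in Dek_cKO. The interval itself measured 2265 and 2523 bp in Dek_fl replicates 1 and 2 and 2407 and 2580 bp in Dek_cKO, with folds of 4.53 and 4.20 against 5.23 and 6.53. In replicate 3, where both summits are listed, the 2 libraries, 1 per group, thus differed in which of the 2 was the higher. The −log10 p-values at the outer and inner position were 15.3 and 11.2 in Dek_fl replicate 3 and 11.1 and 11.4 in Dek_cKO replicate 3. The lists of replicates 1 and 2 give only 1 summit per peak. With the replicate number as a block the limma adjusted p was 0.76 and 0 wide regions passed. A term for replicate 3 alone was not fitted for the summit. With the widest peak in place of the peak of highest fold the difference was −1033 bp with a limma adjusted p of 1.0. Without Dek_fl replicate 1 or 2 or Dek_cKO replicate 1 or 2 the limma adjusted p was 0.070, 0.062, 0.057 or 0.166, and without Dek_fl replicate 3 or Dek_cKO replicate 3 it was 0.0019 or 0.048.

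The remaining wide regions showed no called shift. The absolute difference between group means had a median of 47.0 bp, beside 30.7 bp over all 19683 regions, was at most 50 bp in 173 regions and was at least 500 bp in 18. At Rel, the gene of an NF-kappaB subunit, named after its values were seen, the summit stood at 573, 573 and −298 bp in Dek_fl and at −409, −437 and −298 bp in Dek_cKO. The 2 replicate 3 libraries had the same summit there. Without Dek_fl replicate 3 alone the region passed, with a limma adjusted p of 0.029. The difference was 954 bp in genome coordinates, and the gene lies on the minus strand, so the sign is opposite to that of the distances above.

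**Figure D4:**
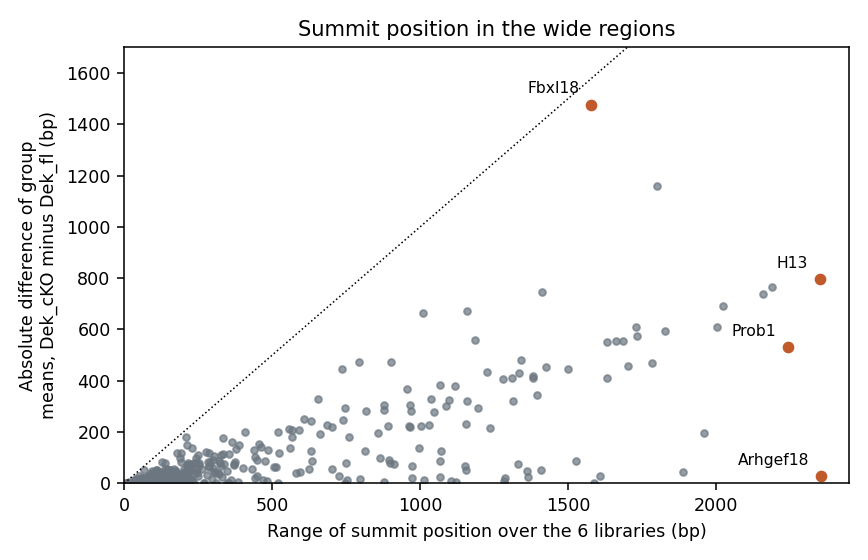
Absolute difference in bp between the group means of summit position (vertical axis) against the distance in bp between the outermost summits of the 6 libraries (horizontal axis) for the 336 wide regions called in all 6 lists; the dotted line marks a group difference equal to the whole range, and the labelled points are Fbxl18 and the 3 regions of largest range. Fbxl18, with a difference of −1476 bp plotted without its sign, lay near the line, and Arhgef18, with 1 distal summit in each group, lay at the foot of the plot.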

How the data were processed

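ATAC-seq peak lists of 6 libraries, 3 per group, were used, with 1 deposited list per library. The submitters' processing notes name Bowtie2, Picard, MACS2 and mm10, with versions, settings and any Tn5 shift not given in the sources used here. Per peak, the authors deposited an interval, a score, a fold over local background, the −log10 of p and of q (p-value and q-value) and a summit offset. The authors' score and fold were used only to describe or rank peaks within a list. Regions, gene ends (RefSeq, GRCm38.p6, 21631 protein-coding genes), ranks and counts were computed with Python 3.11.15 and pandas 2.3.3, and fits with limma 3.58.1 in R 4.3.3, checked on simulated data. Where a list had several peaks in a region, the widest gave the width and the peak of highest fold gave the fold and summit. Coordinates are 1-based.

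Strand and starts were matched through the RefSeq promoter table for 296 of the 375 regions. Gene symbols came with the RefSeq gene ends for all of them. With no read counts in the lists, depth per library is unknown, no interval can be given for a peak, and a region without a peak may still be open.

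The replicate numbers come from the labels' sample names. Deviations from the group means in fold score correlated by 0.27, 0.52 and 0.74 within the same number. Dek_fl 1 with Dek_cKO 2 and Dek_fl 2 with Dek_cKO 1 gave 0.31 and 0.57. By these values only the replicate 3 libraries formed a pair, and the numbers 1 and 2 did not pair the others. The main fits have no block.

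The regions and gene lists were chosen with earlier results of these data known. Named are the 10 widest regions, 5 on each side of the width threshold, the 5 smallest limma p-values per direction, the 3 largest and smallest summit ranges, up to 4 per gene list and the 3 highest and lowest mean percentiles of fold.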

Additional observations from a re-analysis of the deposited data

How the results depend on the processing

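The number of wide regions depended on the width asked for: 1862 regions met the rule at 1500 bp and 71 at 2500 bp, and 3 had at least 2000 bp in both replicate 3 lists too. It was 380 to 720 when 1 of the 4 lists was left out, with 720 without Dek_fl replicate 1 and 440 without Dek_cKO replicate 2. It was 366 with peaks of −log10 q of at least 10, 310 with lists cut to equal length (23809 peaks) and 370 to 375 with other gene-end distances or a merge at 100 bp. For the rank of fold, 0 wide regions were called by limma under every alternative run, the replicate block and a batch term included. The batch term sets the replicate 3 libraries against the other 4, from the threshold and score of their lists, since the labels name no batch. At an unadjusted p below 0.05 there were 5 of 336 wide regions (1.49%) with the block, beside 874 of all 19683 regions (4.44%), and 5 (1.49%) with the batch term, beside 847 (4.30%). The rank difference at Epha4 was −0.24 with replicates 1 and 2 only. For the summit, 0 wide regions were called with the replicate block and 0 with the widest peak, and 0 to 2 when 1 library was left out. The batch term was not run for the summit. The difference at Fbxl18 lay between −1543 and −1443 bp when 1 library was left out. The replicate block changed no other call among the wide regions. The median log2 width ratio was −0.040 in replicate 3 and −0.042 relative to each library's median width, and lay between −0.014 and 0.076 when 1 of the 4 lists was left out. The causes were not tested. Numbers of reads are unknown, so the depth needed to call a difference could not be given.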
